A study of Mus musculus with 4 samples.

Results

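Toll-like receptors are well known sensors of microbial and damage-derived molecules, and 10 genes of this system were followed here in dermal white adipose tissue (dWAT), the fat layer around the lower ends of hair follicles (HFs). The set was chosen by gene symbol and comprised 8 receptor genes (Tlr1, Tlr2, Tlr3, Tlr4, Tlr7, Tlr8, Tlr9 and Tlr13), the co-receptor gene Cd14 and the adaptor gene Myd88. All 10 were found by symbol among the 22913 genes listed, and all had a value above 0 in each library. Of these 10 genes, 7 reached an FPKM of 1 in at least 1 library. FPKM counts the fragments assigned to a gene, scaled to the gene's length and to the mapped fragments of the library.

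The study sequenced total RNA of dWAT from C57BL/6 mice in 4 groups with 1 library each. OTD was dWAT of old mice in telogen, the resting phase of the hair cycle, and YTD was that of young mice in telogen. OAD and YAD were the old and the young tissue in anagen, the growth phase, which had been induced by depilation, so that plucking and phase go together in these groups. Old mice were 18 months of age and young mice 2 months by the treatment text of the labels and the study's methods, whereas the age field of the labels has 18 months beside YTD and 2 months beside OAD. The old and young of the sample titles were followed here. Tissue of many mice per group was harvested by microdissection after removal of the subcutaneous fat and the panniculus carnosus. With 1 library per group, no spread between mice is known, no test between groups was possible, and every difference below is one between single libraries.

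Toll-like receptors are membrane proteins with an outer horseshoe of leucine-rich repeats that binds the ligand and an inner TIR domain that recruits adaptors. TLR1, TLR2 and TLR4 sit on the cell surface and bind bacterial lipoproteins or lipopolysaccharide, and TLR3, TLR7, TLR8, TLR9 and TLR13 sit in endosomes and bind nucleic acids. Most of them signal through MyD88 to NF-kappa B, TLR3 signals through TRIF, and in fat the receptors are best known from macrophages, with TLR4 also found on adipocytes and endothelial cells.

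The libraries differed in make-up in ways that touch every value. Mitochondrially encoded genes took up 14.4% (YAD) and 18.3% (OAD) of all FPKM in anagen but 44.7% (YTD) and 52.7% (OTD) in telogen. The depth was estimated from the FPKM that single fragments give and came to between 17800000 (YAD) and 23900000 (OAD) fragments. From it, each FPKM was turned into an approximate number of fragments with an exact 95% interval, and ratios between libraries were given an exact conditional (Clopper-Pearson) interval. These intervals cover counting error only and not the spread between mice. Values of at most 3 fragments count as at the floor, which applied to 4 values, those of Tlr1 in OAD, of Tlr8 in YAD and of Tlr9 in OAD and YAD.

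Receptor transcripts were scarce in dWAT and were more abundant in telogen than in anagen. The summed FPKM of the 8 receptors was 11.4 in YTD, 18.5 in OTD, 3.26 in YAD and 2.40 in OAD. Tlr4 led in telogen with 33.6% of the sum in OTD and 34.8% in YTD, and its counting interval did not overlap that of Tlr3, next in order. In anagen Tlr3 and Tlr4 led together, with 32.5% and 31.6% of the sum in OAD and 30.4% and 27.8% in YAD, and their intervals overlapped. Tlr9 was last in OTD and YAD, Tlr8 in YTD and Tlr1 in OAD. Below the leading receptors most neighbours in the order had overlapping intervals, and in OTD the step from Tlr8 to Tlr9 was the other exception.

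**Figure D1:**
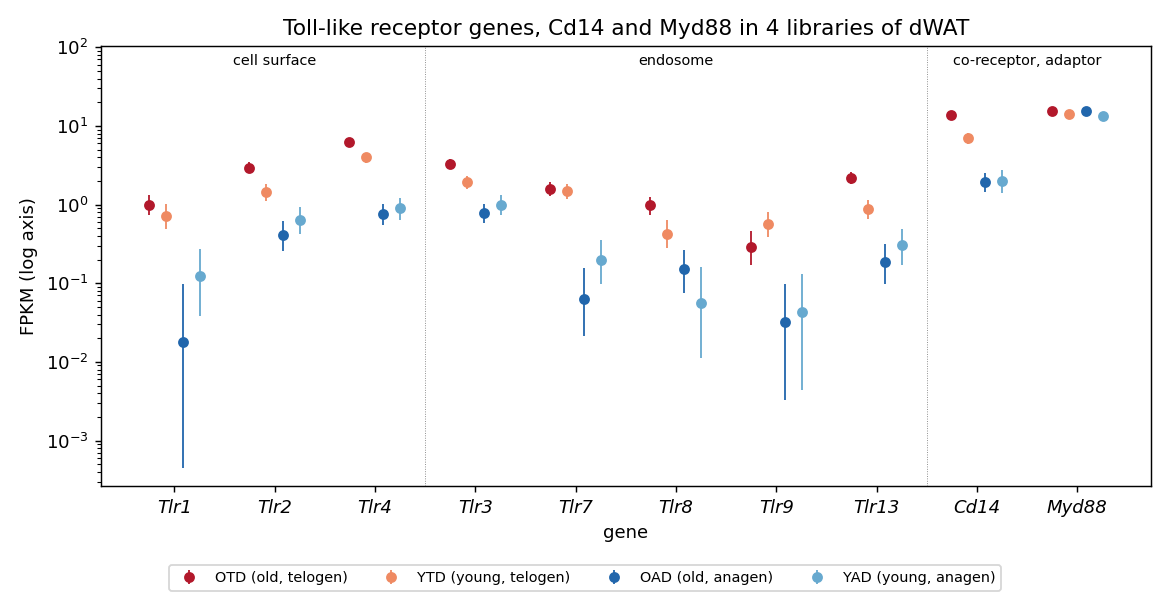
FPKM of the 10 genes (log axis) in the 4 libraries, 1 point per library, with exact 95% intervals for counting error of the estimated fragments. The telogen points (red and orange) lie above the anagen points (blue) for 9 of the 10 genes, and Myd88 lies between 13.2 and 15.6 in all 4.

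Among the surface receptors, Tlr4 was the most abundant in each library. Tlr4 (ENSMUSG00000039005, GRCm38 chromosome 4 from 66827584 to 66930284, plus strand), the receptor for lipopolysaccharide, had an FPKM of 3.97 in YTD against 6.21 in OTD, and 0.905 in YAD against 0.756 in OAD. The level in OTD was 1.56-fold that in YTD (interval 1.30 to 1.89). Both anagen libraries lay far below both telogen libraries, by 4.39-fold in young (3.13 to 6.39) and 8.20-fold in old tissue (6.02 to 11.6).

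Tlr2 (ENSMUSG00000027995, chromosome 3 from 83836272 to 83841767, minus strand) encodes the partner that TLR1 and TLR6 need to bind lipoproteins. Its FPKM was 1.45 in YTD, 2.96 in OTD, 0.635 in YAD and 0.410 in OAD. It stood 2.04-fold higher in OTD than in YTD (1.52 to 2.81), a larger fold than that of Tlr4, with overlapping intervals. Between OAD and YAD the ratio was 0.646 and its interval, 0.347 to 1.15, held 1.

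Tlr1 (ENSMUSG00000044827, chromosome 5 from 64924811 to 64932761, minus strand), whose protein pairs with TLR2, had an FPKM of 0.717 in YTD against 0.990 in OTD, and 0.124 in YAD against 0.0181 in OAD. The old and young telogen values were not distinguishable at this depth, with a ratio of 1.38 (0.868 to 2.25). The value in OAD corresponds to about 1 fragment. Tlr1 shared 454 of its 2339 coding stretches of 50 bases with Tlr6, so reads of this pair could have been split between them and its level is uncertain. Tlr6 itself had an FPKM of 0.501 in YTD, 0.549 in OTD, 0.0748 in YAD and 0.0382 in OAD, the same order of phases.

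Of the endosomal receptors, Tlr3 and Tlr13 carried most of the signal in OTD and both were higher there than in YTD. Tlr3 (ENSMUSG00000031639, chromosome 8 from 45395665 to 45410608, minus strand), the receptor for double-stranded RNA, had an FPKM of 1.91 in YTD against 3.28 in OTD, and 0.990 in YAD against 0.779 in OAD. The ratio of OTD to YTD was 1.72 (1.33 to 2.21). An antisense gene, Gm45542, overlaps Tlr3 on the other strand, and no stretch of 50 bases was shared with another transcript. Among the receptors it had the smallest fold between phases, 1.93 in young (1.35 to 2.79) and 4.22 in old tissue (3.04 to 5.82).

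Tlr13 (ENSMUSG00000033777, X chromosome from 106143229 to 106160493, plus strand) recognises bacterial ribosomal RNA and has no counterpart in humans. Its FPKM was 0.884 in YTD, 2.17 in OTD, 0.306 in YAD and 0.186 in OAD. The ratio of OTD to YTD, 2.45 (1.77 to 3.51), was the highest of the 10 genes.

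Tlr7 and Tlr8 are neighbouring genes on the X chromosome whose proteins both bind single-stranded RNA. Tlr7 (ENSMUSG00000044583, from 167304929 to 167330558, minus strand) had an FPKM of 1.48 in YTD and 1.58 in OTD, a ratio of old to young of 1.07 (0.791 to 1.44), beside 0.198 in YAD and 0.0628 in OAD. Tlr8 (ENSMUSG00000040522, from 167242696 to 167264329, minus strand) had 0.425 in YTD and 0.975 in OTD, a ratio of 2.29 (1.40 to 3.78), beside 0.0562 in YAD and 0.151 in OAD. The telogen intervals of the pair overlapped narrowly, between 1.40 and 1.44. Such an overlap does not decide whether the 2 ratios differ, and their difference was not tested. Tlr8 was also the receptor with the higher value in the old tissue in anagen, about 11 against 3 fragments, and the interval of that ratio (0.721 to 15.2) held 1.

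Tlr9 (ENSMUSG00000045322, chromosome 9 from 106222598 to 106226883, plus strand), the receptor for unmethylated CpG DNA, went the other way. Its FPKM was 0.565 in YTD against 0.287 in OTD, and 0.0436 in YAD against 0.0319 in OAD. The level in YTD was 1.97-fold that in OTD (1.06 to 3.65), from about 33 and 18 fragments, and with the depth taken as 50% of the estimate, an alternative chosen after the values were seen, the interval of OTD to YTD (0.207 to 1.28) held 1. Plasmacytoid dendritic cells are known for high Tlr9, and the fixed markers of dendritic cells were split in telogen, with 3 of 7 higher and 4 lower in OTD. Their summed FPKM was 7.73 in YTD and 12.1 in OTD, with Itgax the highest difference (1.58). Siglech, the marker of the plasmacytoid kind, had an FPKM of 0.548 in YTD, 0.349 in OTD, 0 in YAD and 0.0462 in OAD, and its ratio of old to young in telogen, 0.636, had an interval of 0.214 to 1.93. The 4 fixed B cell markers were all higher in OTD, as were 45.8% of all genes compared, with a summed FPKM of 0.426 in YTD and 1.40 in OTD. Most of them hardly differed, with a median difference of log2(FPKM + 1) of 0.06, from 0.03 for Ms4a1 to 0.75 for Cd79b. The part of either cell type in the Tlr9 values was not tested.

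Sequence upstream of the start site was searched for 7 of the 10 genes, as taken from the RefSeq promoter table (GRCm38.p6). That of Tlr4, Tlr7 and Cd14 was not searched, so the motifs upstream of them are not known. The windows searched were the 250 bases before each start site, on both strands. The ETS core GAGGAA, a sequence that factors such as PU.1 of macrophages bind, was in windows of 4 of these 7 genes (Tlr1, Tlr8, Tlr9 and Tlr13), and 23.3% of all 32851 windows of this length held it. The AP-1 motif TGANTCA was in the Tlr9 window alone of the 7 genes, against 6.75% of all windows. The GC box GGGCGG was in the windows of Tlr2 and Myd88, against 32.7% of all windows. The NF-kappa B pattern GGGNNTTCC was in that of Tlr2, against 4.98% of all windows. The interferon response pattern GAAANNGAA was in the windows of Tlr8 and Myd88, against 7.13%, and the TATA box TATAAA was also in those of Tlr8 and Myd88, against 12.4%. The windows of Tlr8, Tlr13 and Tlr9 are printed because the first pair of genes had the highest ratios of OTD to YTD and Tlr9 the lowest. The core thus occurred upstream of genes with either direction, and a match of letters is not a binding site. They lie at chrX:167264330-167264579 (minus strand), chrX:106143025-106143203 (plus strand, ending before the first annotated exon) and chr9:106222348-106222597 (plus strand), with the ETS core in capitals, which in Tlr8 reads TTCCTC because it lies on the other strand.
Tlr8: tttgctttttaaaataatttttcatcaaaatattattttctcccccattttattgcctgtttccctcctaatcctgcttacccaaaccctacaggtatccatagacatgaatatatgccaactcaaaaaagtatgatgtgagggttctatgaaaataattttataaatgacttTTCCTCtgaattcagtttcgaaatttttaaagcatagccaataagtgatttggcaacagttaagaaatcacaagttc
Tlr13: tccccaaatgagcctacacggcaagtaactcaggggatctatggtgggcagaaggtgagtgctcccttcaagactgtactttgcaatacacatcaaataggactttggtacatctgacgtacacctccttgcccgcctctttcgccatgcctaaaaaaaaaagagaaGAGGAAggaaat
Tlr9: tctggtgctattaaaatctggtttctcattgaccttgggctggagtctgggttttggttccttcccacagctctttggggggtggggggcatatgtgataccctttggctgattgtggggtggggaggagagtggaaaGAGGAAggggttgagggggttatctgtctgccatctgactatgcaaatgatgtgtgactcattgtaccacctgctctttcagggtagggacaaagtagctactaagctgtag
The core began at position -77 from the RefSeq start site in Tlr8, -83 in Tlr13 and -112 in Tlr9. In Tlr13 the full window ran to 106143274, so its RefSeq start site lies inside the gene span given above.

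Cd14 (ENSMUSG00000051439, chromosome 18 from 36725074 to 36726736, minus strand) encodes the surface protein that hands lipopolysaccharide to TLR4. Its FPKM was 7.03 in YTD against 13.6 in OTD, and 2.00 in YAD against 1.95 in OAD. It was 1.93-fold higher in OTD than in YTD (1.58 to 2.38), and in anagen the interval of the ratio of old to young, 0.977 (0.629 to 1.52), held 1. The ratio of Cd14 to Tlr4, both per coding length, was 1.77 in YTD, 2.19 in OTD, 2.21 in YAD and 2.58 in OAD. That of Ly96, the gene of the MD-2 subunit that TLR4 needs to bind its ligand, to Tlr4 was 1.40 in YTD, 1.71 in OTD, 2.77 in YAD and 3.73 in OAD. Cd14 per unit of Adgre1, a macrophage marker, was 1.53 in YTD, 1.40 in OTD, 2.56 in YAD and 3.18 in OAD.

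Myd88 (ENSMUSG00000032508, chromosome 9 from 119335934 to 119341411, minus strand), the adaptor shared by most of the receptors, varied least of the 10 genes between phases. Its FPKM was 14.1 in YTD against 15.6 in OTD, and 13.2 in YAD against 15.4 in OAD, and all 4 ratios had intervals that held 1. Per unit of the receptor sum, Myd88 stood at 1.23 in YTD, 0.845 in OTD, 4.04 in YAD and 6.42 in OAD. Myd88 overlaps Acaa1a, a peroxisomal thiolase gene on the other strand, and 175 of the 842 stretches of 50 bases in its coding sequence also lie in Acaa1a transcripts. Acaa1a had an FPKM of 50.1 in YTD against 43.6 in OTD, and 41.9 in YAD against 45.7 in OAD. Whether fragments were counted by strand is not given in the sources used here, so that without strand the reads of the pair cannot be told apart over these stretches.

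In the comparison of old with young dWAT in telogen, 9 of the 10 genes were higher in OTD and Tlr9 was lower. By sign, 45.8% of all genes compared were higher in OTD and 54.1% were lower. Differences are given from here on as log2(FPKM + 1), a scale that shrinks differences at low FPKM. The median of the 10 genes was 0.50, against -0.03 for all genes, and the values ran from -0.28 for Tlr9 to 0.86 for Cd14. At a log2 difference of at least 1, the limit used for counting, 0 of the 10 were higher and 0 were lower, against 1.67% of the 17230 genes compared that were higher and 1.93% that were lower. After Cd14 came Tlr13 with 0.75 and Tlr2 with 0.69, and the smallest difference in size was the 0.06 of Tlr7. By counting error alone, 6 genes were higher (Tlr2, Tlr3, Tlr4, Tlr8, Tlr13 and Cd14), 1 was lower (Tlr9), and the intervals of Tlr1, Tlr7 and Myd88 held a ratio of 1. By the same intervals 19.2% of all genes compared were higher in OTD and 27.6% were lower. When the libraries were rescaled to equal sums without mitochondrial genes, Tlr13 and Cd14 passed the limit, as did 3.81% of all genes, while the median of all genes moved to 0.10.

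In the comparison of old with young dWAT in anagen, the receptors were low on both sides, too low to settle whether they differed. Their ratios of old to young ran from 0.145 for Tlr1 (0.00315 to 1.33) to 2.70 for Tlr8 (0.721 to 15.2), with none given for Tlr9. The log2(FPKM + 1) values below are small partly because the scale shrinks such low values. Of the 10 genes, 8 were lower in OAD, and Tlr8 and Myd88 were higher, with a median of -0.13 against 0.00 for all genes. With a filter at an FPKM of 1, which kept 2 of the 10 genes, this median was 0.09. The values ran from -0.21 for Tlr2 to 0.21 for Myd88. At the limit of 1, 0 of 10 were higher and 0 lower, against 0.727% and 0.454% of the 17613 genes compared, and 0 of the 10 counting intervals left out a ratio of 1, against intervals above 1 in 15.2% and below it in 13.3% of all genes compared. In TPM, which moved the median of all genes to -0.16, Myd88 stood at -0.01.

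**Figure D2:**
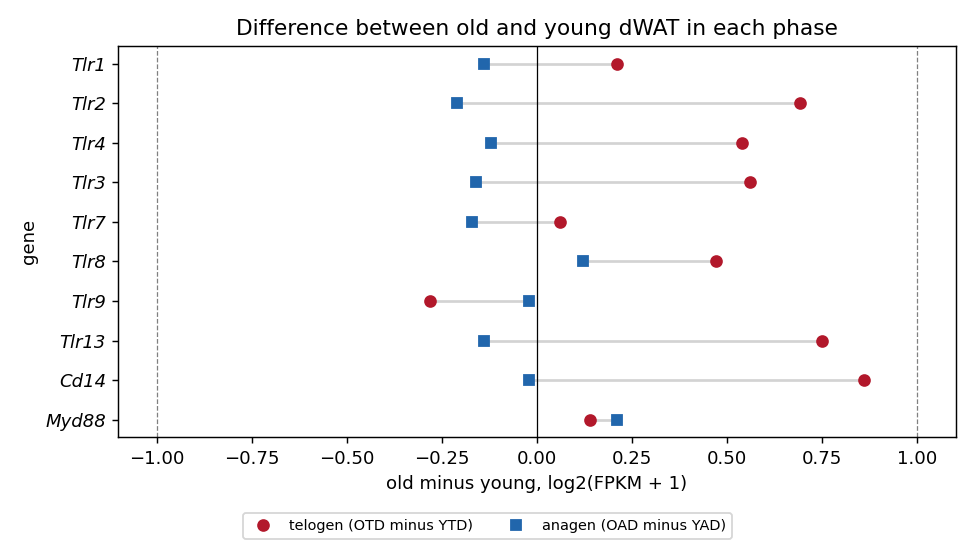
Old minus young value of log2(FPKM + 1) for each gene in telogen (red circles) and anagen (blue squares), 1 library per group. The telogen values reach 0.86 for Cd14 while the anagen values stay between -0.21 and 0.21, and the dashed lines mark the limit of 1. This scale shrinks differences at low FPKM, as those of the receptors in anagen.

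Between phases, the same libraries were compared the other way, so these comparisons share libraries with those of age. In young dWAT all 10 genes were lower in YAD than in YTD, though Myd88 by little (-0.09) and not under every scaling, with a median of -0.58 against 0.02 for all genes. Tlr4 (-1.38), Tlr7 (-1.05) and Cd14 (-1.42) passed the limit, 3 of 10, whereas 16.7% of the 17622 genes compared were lower by as much and 16.1%, and 0 of the 10, were higher. In old dWAT all 10 were lower in OAD than in OTD, again with Myd88 near 0 (-0.02) and higher in TPM, with a median of -1.27 against 0.01 for all genes. There 6 of 10 passed the limit (Tlr2, Tlr3, Tlr4, Tlr7, Tlr13 and Cd14), with 15.6% of the 17712 genes compared lower and 16.1%, and again 0 of the 10, higher. In both ages the counting intervals of 9 genes lay below a ratio of 1 and that of Myd88 held it. Of all genes compared, 34.5% in young and 34.9% in old tissue had such an interval below 1, and 36.2% and 36.9% had it above. By sign alone, 48.8% of all genes compared were lower in anagen in young and 49.0% in old tissue. The largest differences were those of Cd14, -2.30, and Tlr4, -2.04, in old tissue.

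The scaling bears on the phase comparisons. In TPM the median of all genes moved to 0.45 in young and 0.32 in old tissue, and 0 and 5 of the 10 genes were then lower by at least 1, beside 7.23% and 8.48% of all genes. Relative to that shift the members' median was -0.82 in young and -1.30 in old tissue. Myd88 flipped in TPM to 0.70 and 0.56, that is 0.25 and 0.24 above the shift, and stood at 0.11 in young tissue without mitochondrial genes, and the other 9 genes were lower in anagen under every setting run.

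Macrophage markers moved in the direction of the receptors, by their medians, in each comparison. Of the 15 markers fixed for this cell type, 13 were above the floor in all libraries, while Cx3cr1 in both anagen libraries and Fcgr1 in OAD were not. The summed FPKM of the 15 was 577 in YTD, 964 in OTD, 150 in YAD and 115 in OAD. By sign, 45.8% of all genes compared were higher in OTD and 49.9% were lower in OAD. Of the 15 markers, 14 were higher in OTD than in YTD with a median log2 difference of 0.38, and 13 were lower in OAD than in YAD with a median of -0.26. Beside this, Tlr13 was 0.37, Tlr2 0.32 and Cd14 0.48 above the marker median in telogen, and Tlr7 was 0.32 and Tlr9 0.66 below it. In bulk tissue, fewer cells of a type and less RNA per cell cannot be told apart.

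The receptor sum was also set against the marker sum. Per 1000 FPKM of macrophage markers it was 19.8 in YTD and 19.1 in OTD, and 21.8 in YAD and 20.9 in OAD, while the receptor sum itself differed by up to 7.71-fold. Lyz2, which made up 31.8% to 48.9% of the marker sum, bears on the order of these values. Without it, an alternative chosen after the values were seen, they were 33.5 in YTD against 37.5 in OTD, and 32.0 in YAD against 31.8 in OAD. On the scale of log2(FPKM + 1), which shrinks differences at low FPKM, all 10 genes lay above the marker median between phases in young tissue, by 0.09 (Cd14) to 1.42 (Myd88). In old tissue Cd14 lay 0.26 below it, Tlr4 0.01 above, Tlr8 1.27 above and Tlr9 1.73 above. Tlr4 per unit of Adgre1, the gene of the macrophage protein F4/80, was 0.865 in YTD, 0.642 in OTD, 1.16 in YAD and 1.23 in OAD. Endosomal genes made up 46.2% of the receptor sum in YTD, 45.0% in OTD, 48.9% in YAD and 50.6% in OAD.

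**Figure D3:**
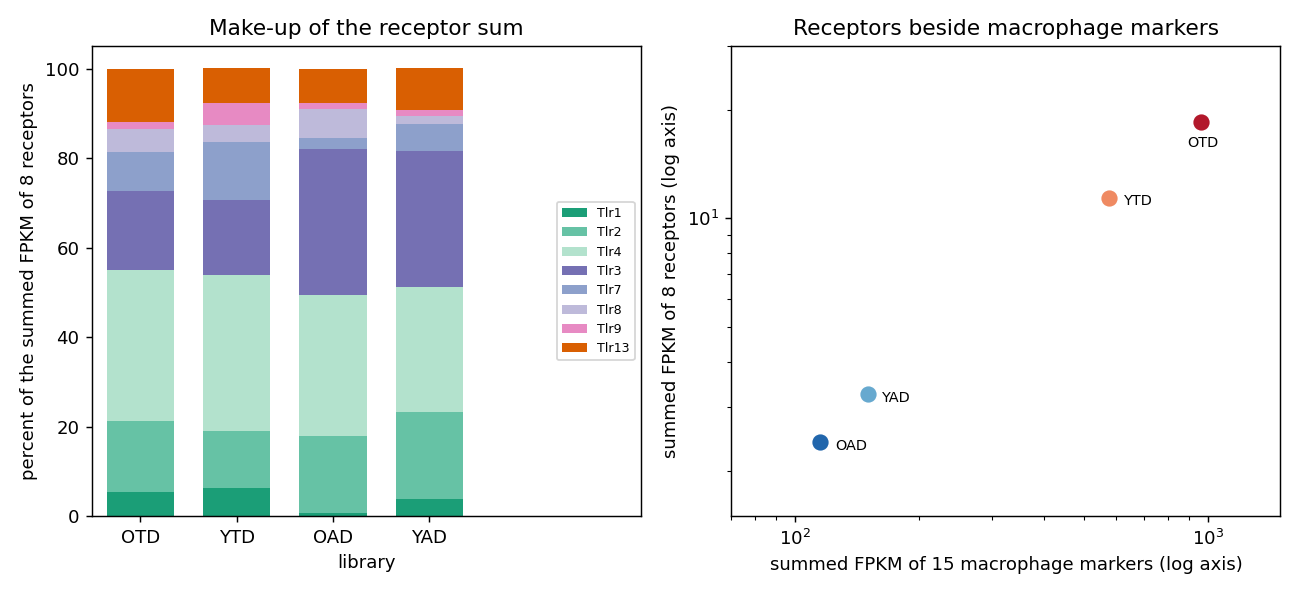
Left, share of each receptor in the summed FPKM of the 8 receptors in each library, in percent. Right, the receptor sum against the summed FPKM of 15 macrophage markers, both on log axes, 1 point per library, with 18.5 against 964 in OTD and 2.40 against 115 in OAD.

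Other cell types moved with the phases as well. The summed FPKM of 6 endothelial markers was 169 in YTD against 263 in OTD, and 53.0 in YAD against 64.5 in OAD, and that of 9 adipocyte markers 3134, 4315, 1182 and 1602 in the same order. In anagen these 2 sums were higher in OAD than in YAD, opposite to the receptor sum. The sum of 7 fibroblast markers was 954 in YTD against 1387 in OTD, and 354 in YAD against 199 in OAD. That of 6 mast cell markers was 66.7, 96.2, 30.7 and 23.6 in the same order. The fibroblast and mast cell sums went in the direction of the receptor sum in each comparison, as those of macrophage markers did. The sum of 4 monocyte markers was 64.2 in YTD, 135 in OTD, 3.43 in YAD and 7.91 in OAD. That of 10 neutrophil markers, S100a8 and S100a9 among them, was 119, 139, 59.4 and 142 in the same order. In anagen both of these sums were higher in OAD than in YAD, opposite to the receptor sum. Hair shaft keratins ran the other way between phases, at 22.1 in OTD and 62.3 in YTD but 6617 in OAD and 6849 in YAD. Skeletal muscle genes summed to 76750 in YTD, 48701 in OTD, 8469 in YAD and 11003 in OAD, although the muscle layer had been removed. The part of each in the receptor values was not tested.

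The genes that work around the receptors fell into lists of helpers, adaptors, signalling enzymes, transcription factors, restraint genes, ligands and targets. With the other Toll-like receptors and other pattern receptors described below, 78 genes were listed and 77 matched. Of these 77, 9 (2 of them other pattern receptors) were higher and 0 lower by at least 1 in OTD, against 2 higher and 1 lower in OAD. The shares of all genes past that limit, given above, were 1.67% and 1.93% in telogen and 0.727% and 0.454% in anagen. Of the 8 helpers, 7 were higher in OTD, as were 45.8% of all genes compared, and the median difference of the helpers was 0.56. Lbp, which delivers lipopolysaccharide to CD14, had an FPKM of 16.5 in YTD and 38.7 in OTD (1.18), and Ly86, the partner of the receptor-like protein CD180, had 9.34 and 22.7 (1.19). Ly96, named after its values were seen, had 5.54 and 10.6 (0.83), and Cnpy3, a chaperone of the receptors, was lowest with -0.09.

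Adaptors and enzymes downstream were split in direction, as were all genes compared in telogen, with 45.8% higher and 54.1% lower in OTD. Of the 5 other adaptors 3 were higher and 2 lower in OTD (median 0.23), and Tirap, which bridges TLR2 and TLR4 to MyD88, stood at an FPKM of 9.65 in YTD and 5.54 in OTD (-0.70). Pik3ap1 (0.42) and Ticam2 (0.39) were highest, and Sarm1 was at -0.10. Of 14 kinases and ligases 4 were higher and 10 lower in OTD (median -0.18), and the lowest were Traf3 with 7.85 in YTD and 3.72 in OTD (-0.91) and Tab1 (-0.48). The highest were Tab3 (0.36) and Irak2, a kinase that joins the MyD88 complex, which was at 0.46 in telogen and 0.58 in anagen. The ratio of old to young for Irak2 was 1.49 (1.17 to 1.90) in telogen and 1.77 (1.29 to 2.41) in anagen. The 8 transcription factors had a median of -0.09, with Rela at 0.36, Nfkb1 at 0.32, Irf5 at -0.40 and Irf7 at -0.13. None of these 3 lists had a gene past the limit in either age comparison.

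Among 8 restraint genes 4 were higher and 4 lower in OTD, with Tnfaip3, which removes ubiquitin chains from the pathway, at 0.87, Sigirr at 0.84, Socs1 at -0.45 and Tnip1 at -0.40. Of 6 ligands made by the body, S100a9, a partner in the calprotectin pair that TLR4 can bind, had an FPKM of 0.656 in YTD against 11.7 in OTD, and 1.26 in YAD against 11.2 in OAD. It was higher in old tissue in both phases, though its young values were worth only about 4 (YTD) and 8 (YAD) fragments. By contrast, 7 of the 8 receptors were lower in OAD than in YAD. The other partner, S100a8, had an FPKM of 114 in YTD and 123 in OTD, and differed by 0.12 in telogen and 1.17 in anagen. Bgn stood at 0.79 in telogen. Vcan, a matrix proteoglycan, was lower in old tissue by 0.62 on the log2 scale in telogen and by 1.51 in anagen. Among the 13 targets 9 were higher in OTD, 4 of them by at least 1 (Cxcl1, Il6, Il1b and Ccl2), though the YTD values of Cxcl1 and Il6 were worth only 1 and 3 fragments. Of all genes compared, 45.8% were higher in OTD, and 1.67% by at least 1. Ccl5 (-0.40) and Tnf (-0.33) were lowest. In anagen 0 of the 13 passed the limit in either direction, but the 4 past it in telogen were near the floor there. In OAD and YAD they had about 2 and 1 fragments (Cxcl1), 1 and 0 (Il6), 5 and 3 (Il1b), and 3 and 4 (Ccl2). Il12b and Ifnb1 were at 0 in both. Such low values cannot show whether these targets differ with age in anagen.

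By counting interval, 19.2% of all genes compared were higher in OTD and 27.6% were lower. Of 11 other pattern receptors matched, the median telogen difference was 0.28, and 6 had a counting interval above a ratio of 1 (Ddx58, Ifih1, Clec7a, Aim2, Tmem173 and Msr1). For the other 5 it held 1, and of these Clec4e and Marco were at or under the floor in both telogen libraries. Clec7a, the beta-glucan receptor Dectin-1, had an FPKM of 2.41 in YTD, 14 in OTD, 0.436 in YAD and 0.187 in OAD, a telogen difference of 2.14. Tmem173, the gene of STING, had 6.22, 13.6, 2.85 and 2.99 in the same order, a difference of 1.01. The remaining Toll-like receptor genes, Tlr5, Tlr6, Tlr11 and Tlr12, differed by 0.05 (Tlr6) to -0.24 (Tlr5) in telogen, with Tlr12 at -0.06, and Tlr5 was at 0.976 in YTD against 0.679 in OTD, and 0.826 in YAD against 0.626 in OAD.

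**Figure D4:**
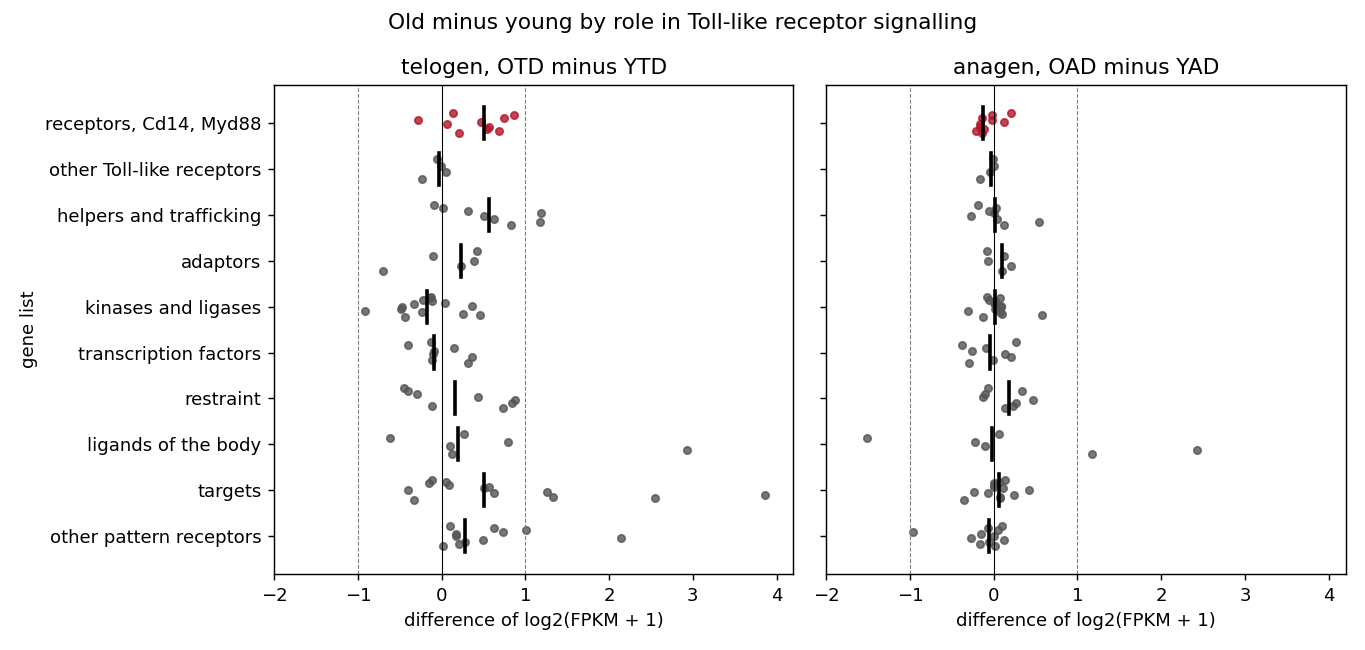
Old minus young difference of log2(FPKM + 1) in telogen and anagen for the 10 genes (red) and for genes by role (grey), 1 point per gene, with list medians as black bars and the limit of 1 dashed. Helpers have a telogen median of 0.56 and kinases and ligases one of -0.18, and S100a9 stands at 2.93 in telogen and 2.43 in anagen.

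The genes most alike in pattern over the 4 libraries were looked up among 12733 genes, by the Euclidean distance of log2(FPKM + 1) centred on each gene's mean. For Tlr4 the nearest was Csf1r, the receptor that maintains macrophages, at a distance of 0.023, with an FPKM of 10.3 in YTD, 15.5 in OTD, 3.43 in YAD and 3.0 in OAD. A4galt, Cnrip1, Ifngr1 and Pam followed, at 0.056 to 0.084. For Cd14 the nearest were Cyp4b1 (0.072), Hsd17b11, Gbp9, Medag and Serinc3, and for Tlr2 they were Bik (0.037), Sdcbp, Cep170, Sfxn4 and Dlc1. For Tlr13 they were Itga8 (0.036), Stum, Bik, Cep170 and Zdhhc2.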

How the data were processed

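Total RNA of dWAT (1 library for each of the 4 groups, integrity number above the study's limit) was sequenced on an Illumina platform. The submitters' processing notes name bcl2fastq, TopHat2 and GRCm38, without versions. The tool that computed the FPKM, the annotation and any scaling between libraries are not given in the sources used here. The authors deposited FPKM per gene with a gene position and a length. Of the lengths, 97.0% are multiples of 3, and the listed length of all 10 genes followed here equals that of an annotated coding sequence. Symbols were matched to 21750 of 22166 Ensembl identifiers.

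The FPKM were used as deposited. Differences are those of log2(FPKM + 1) over genes above 0 in at least 1 compared library, counted at a size of at least 1. With 1 library per group no test was run. Fragments per library were approximated from the lowest FPKM of features between 2000 and 4000 bases long. The steps were tested on simulated libraries of 22913 genes with 200 changed 4-fold. They found 200 in telogen and 200 in anagen in the right direction, and 3 and 4 of 22713 unchanged genes passed the limit. The changed genes were drawn only from well expressed genes, with a mean FPKM above that of most receptors here. The simulation thus does not show how changes at the receptors' low levels would be found.

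All 10 members are reported, with, of each list, up to 2 genes with the largest rise, up to 2 with the largest fall in telogen and those past the limit in either age comparison. Ly96 was added to these after its values were seen. The members, gene lists and markers were chosen with earlier results of these data known. Ddx58, Ifih1, Aim2, Msr1, Clec4e and Marco are named by their counting intervals or floor. Genes most alike were sought for the receptor with the highest mean and for Tlr2, Tlr13 and Cd14, at a mean FPKM of at least 1. Shared sequence was searched in 50-base stretches of GENCODE M21 coding sequences, and upstream sequence was taken from RefSeq. Alternatives were a pseudocount of 0.1, a filter at an FPKM of 1, 3 rescalings and a limit of 0.5. Python 3.11.15, numpy 2.4.6, pandas 2.3.3, scipy 1.17.1 and matplotlib 3.10.9 were used.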

Additional observations from a re-analysis of the deposited data

Results flagged for a closer look

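For 7 of the 10 genes the difference between old and young dWAT had opposite signs in telogen and anagen, higher in OTD than in YTD and lower in OAD than in YAD. Of all genes compared, 45.8% were higher in OTD and 49.9% were lower in OAD. The share of all genes with opposite signs was not counted, so whether 7 of 10 is unusual is not known. The telogen difference less the anagen difference, on the scale of log2(FPKM + 1), was 0.91 for Tlr2, 0.89 for Tlr13, 0.88 for Cd14, 0.72 for Tlr3, 0.65 for Tlr4, 0.36 for Tlr1 and 0.23 for Tlr7. This scale shrinks differences at low FPKM, so the order of the genes depends on their level. The ratios of old to young in telogen and anagen were 1.38 and 0.145 for Tlr1, 1.07 and 0.317 for Tlr7, and 1.93 and 0.977 for Cd14. With 1 library per group the difference between phases was not tested. In anagen the counting intervals of all 7 held a ratio of 1, so their sign there is not settled by counting error alone. Of 15 macrophage markers, the median was 0.38 in telogen and -0.26 in anagen, and their part in these differences was not tested.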

How the results depend on the processing

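With 1 library per group, leaving out a replicate was not possible. No paired analysis was possible because each group has 1 library. No setting reversed a difference past the limit. In telogen, the number of genes higher by at least 1 in OTD, 0 as reported, was 2 with a pseudocount of 0.1 (Tlr8 and Tlr13), 2 without mitochondrial genes (Tlr13 and Cd14) and 5 with a limit of 0.5, beside 6.27%, 3.81% and 8.91% of all genes. In young tissue, the number lower by at least 1 in YAD, 3 as reported, was 8 with a pseudocount of 0.1, 0 in TPM and 8 with a limit of 0.5, beside 24.3%, 7.23% and 28.2% of all genes. In anagen the median between ages, -0.13, was -0.27 with a pseudocount of 0.1 and 0.09 with the filter at an FPKM of 1, which kept 2 of the 10 genes. The median in young tissue between phases was -1.76 with a pseudocount of 0.1, and that in old tissue was -2.66 with a pseudocount of 0.1, -0.98 in TPM and -1.67 without mitochondrial genes. Of the differences of single genes, 26 of the 40 moved by more than their counting interval with a pseudocount of 0.1, 14 in TPM, 10 without mitochondrial genes and 0 after rescaling by the median of ratios. With the depth taken as 50% of the estimate, chosen after the data were seen, 6 of the 10 genes in telogen had an interval that left out 1, with Tlr9 no longer among them, and the counts in the other comparisons were 0, 9 and 9 as before. Without Lyz2, also chosen after the data were seen, the receptors per macrophage marker in OTD against YTD moved from a ratio of 0.968 to 1.12. Depth limits Tlr1, Tlr8 and Tlr9 in anagen, where each had a value worth 3 fragments or fewer in at least 1 library.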
